A study of Mus musculus with 6 samples.

Results

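FGF21 is a secreted hormone that pancreatic acinar cells, the cells that make digestive enzymes, produce and respond to by releasing those enzymes. The genes described here are Fgf21, the gene of its co-receptor Klb, the 4 FGF receptor tyrosine kinase genes Fgfr1 to Fgfr4, and the adaptor gene Frs2. They were chosen by name as parts of this pathway, and all 7 were found among the 36333 rows of a gene count table. RNA was sequenced from the pancreas of 6 WT mouse samples. The 3 saline samples came from mice given saline intraperitoneally, and the 3 cerulein samples from mice given cerulein by the same route, as 10 doses of 200 µl at 200 µg/kg/h, with the pancreas taken as soon as the last dose had completed the model. The sources used here do not give strain, sex, age or the number of saline doses. Cerulein is an analogue of the hormone cholecystokinin, and its repeated injection is a standard model of acute pancreatitis. The comparison of cerulein with saline asks which RNAs differ early in that model. No label says that the samples of a group were separate animals, so the p-values below measure the spread between these samples.

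FGF21 binds cells through β-klotho, the protein of Klb, which holds the hormone next to an FGF receptor, chiefly FGFR1, because FGF21 itself binds heparan sulfate and receptors only weakly. The activated receptor phosphorylates FRS2, which recruits GRB2, GAB1 and SOS and so switches on RAS and the RAF, MEK and ERK kinases. ERK induces transcription factors such as EGR1 and ETV5 and inhibitors of the pathway such as the Sprouty proteins and DUSP6. The Fgf21 gene is itself a known target of ATF4, a transcription factor made when the integrated stress response is active, and of PPARα, a nuclear receptor of the fasting response. Gene counts do not separate the splice forms of the receptors that differ in which ligands they bind.

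The sequence just before Fgf21 is shown because it carries an element that ATF4 is known to bind, and because Atf4 and its other targets changed in these samples. The RefSeq window chr7:45615441-45615740 (GRCm38.p6, the assembly behind mm10, minus strand) holds 250 bases before the start of Fgf21 and 50 after it, and the bases before the start are printed 5′ to 3′. Capitals mark the core of the C/EBP-ATF element, searched as TGATGNAA on both strands and here on the minus strand of the window.
Fgf21 upstream: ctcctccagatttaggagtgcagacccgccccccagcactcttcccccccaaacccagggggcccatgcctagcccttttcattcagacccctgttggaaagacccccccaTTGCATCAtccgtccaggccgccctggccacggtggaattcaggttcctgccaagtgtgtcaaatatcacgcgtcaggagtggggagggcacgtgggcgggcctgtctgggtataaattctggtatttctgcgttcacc
The core lay 139 bases before the start, and it was the only match among the windows of the 6 genes that had one (Fgf21, Klb, Fgfr2, Fgfr3, Fgfr4 and Frs2). The full cyclic AMP element TGACGTCA and the AP-1 element TGANTCA, which could overlap the first motif, matched none of these windows. Of all 32851 promoter windows of the assembly, 3.97% held TGATGNAA, 1.79% held TGACGTCA and 7.81% held TGANTCA. In a list of 12 other ATF4 targets, 6 of the 11 genes with a window held the core, namely Asns, Chac1, Nupr1, Slc7a11, Trib3 and Vldlr. The stretches of 3 of these genes are set beside that of Fgf21, each 30 bases on its gene's strand with the core in capitals, from chr7:45615611-45615640 (Fgf21), chr2:119351038-119351067 (Chac1), chr3:50443661-50443690 and chr3:50443642-50443671 (Slc7a11) and chr6:7693214-7693243 (Asns).
Fgf21: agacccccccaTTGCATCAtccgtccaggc
Chac1: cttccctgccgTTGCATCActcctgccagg
Slc7a11, distal: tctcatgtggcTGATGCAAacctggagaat
Slc7a11, proximal: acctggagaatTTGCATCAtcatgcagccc
Asns: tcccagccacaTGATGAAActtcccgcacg
Fgf21, Chac1 and the proximal Slc7a11 stretch carried the same letters TTGCATCA. The distal Slc7a11 stretch carried them on the other strand (TGATGCAA). Nupr1 and Vldlr, whose stretches are not shown, also held TTGCATCA. A match of letters is a description of the window and not evidence of binding.

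Total counts per library lay between 5335117 and 7610775. Of 12441 genes that passed a filter on low counts, 6947 (55.8%) were called at an adjusted p under 0.05 by edgeR's quasi-likelihood test, with 3574 (28.7%) higher and 3373 (27.1%) lower in cerulein. That balance moved with the scaling of the libraries: upper-quartile factors gave 2895 higher and 4190 lower genes, and library size alone gave 5181 and 1449. The CPM values of the groups did not overlap for 7836 genes (63.0%). Saline replicate 1 stood apart from the other saline samples, with summed acinar markers at 306700 CPM (read counts scaled to a common library size with edgeR's TMM factors) against 584700 and 588600, and summed neutrophil markers at 218 against 18.0 and 41.1. After cerulein 7 of 8 acinar markers fell, from a summed level of 306700 to 588600 CPM in saline to 181800 to 232000 in cerulein. Of the ductal markers 5 of 7 rose and 2 fell (413 to 513 against 999 to 1225 CPM). For macrophages and monocytes 4 of 7 markers rose and 3 were not called (135 to 310 against 483 to 542 CPM). Among 8 stellate cell and fibroblast markers 2 rose and 1 fell, with overlapping sums (389 to 448 against 351 to 474 CPM). Islet markers had 2 of 6 tested lower (Slc30a8, -2.28, and Gcg, -0.64, log2) and adipocyte markers 1 of 4 lower (Fabp4, -1.28) and 1 higher (Lep, 2.42), with overlapping sums for both (806 to 1909 against 1006 to 1668 CPM, and 109 to 195 against 92.1 to 122.8). Endothelial markers had 2 higher and 2 lower of 7, and the sums of neutrophil (18.0 to 218 against 50.4 to 118 CPM) and lymphocyte markers (5.41 to 34.7 against 22.2 to 47.5 CPM) overlapped between the groups. Liver cells are a rich source of Fgf21, Klb and Fgfr4. Of 7 hepatocyte markers, Alb, the albumin gene, had 1 to 6 counts in each library and Apoa1 and Serpina1a were at 0 in all 6, while Ttr and Cyp2e1, the 2 tested, fell (summed markers 34.0 to 52.2 CPM in saline and 7.72 to 11.5 in cerulein). The part that these cell types play in the results below was not tested, and in bulk tissue fewer cells of a type and less RNA per cell cannot be told apart.

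All 7 genes passed the filter. Klb and Fgfr3 fell after cerulein, Fgfr1 and Fgfr4 rose, and Fgf21, Fgfr2 and Frs2 were not called. The 4 called genes (2 higher and 2 lower) are to be read against the 55.8% called among all genes, and the 5 genes whose groups did not overlap against 63.0%. The median log2 fold change over the 7 genes was -0.38, beside -0.0009 over all genes tested. The summed level of the 7 genes was 164.9 ± 18.7 CPM in saline and 164.3 ± 9.16 in cerulein (SD, n = 3 each), so the genes moved in both directions around a nearly equal sum.

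**Figure D1:**
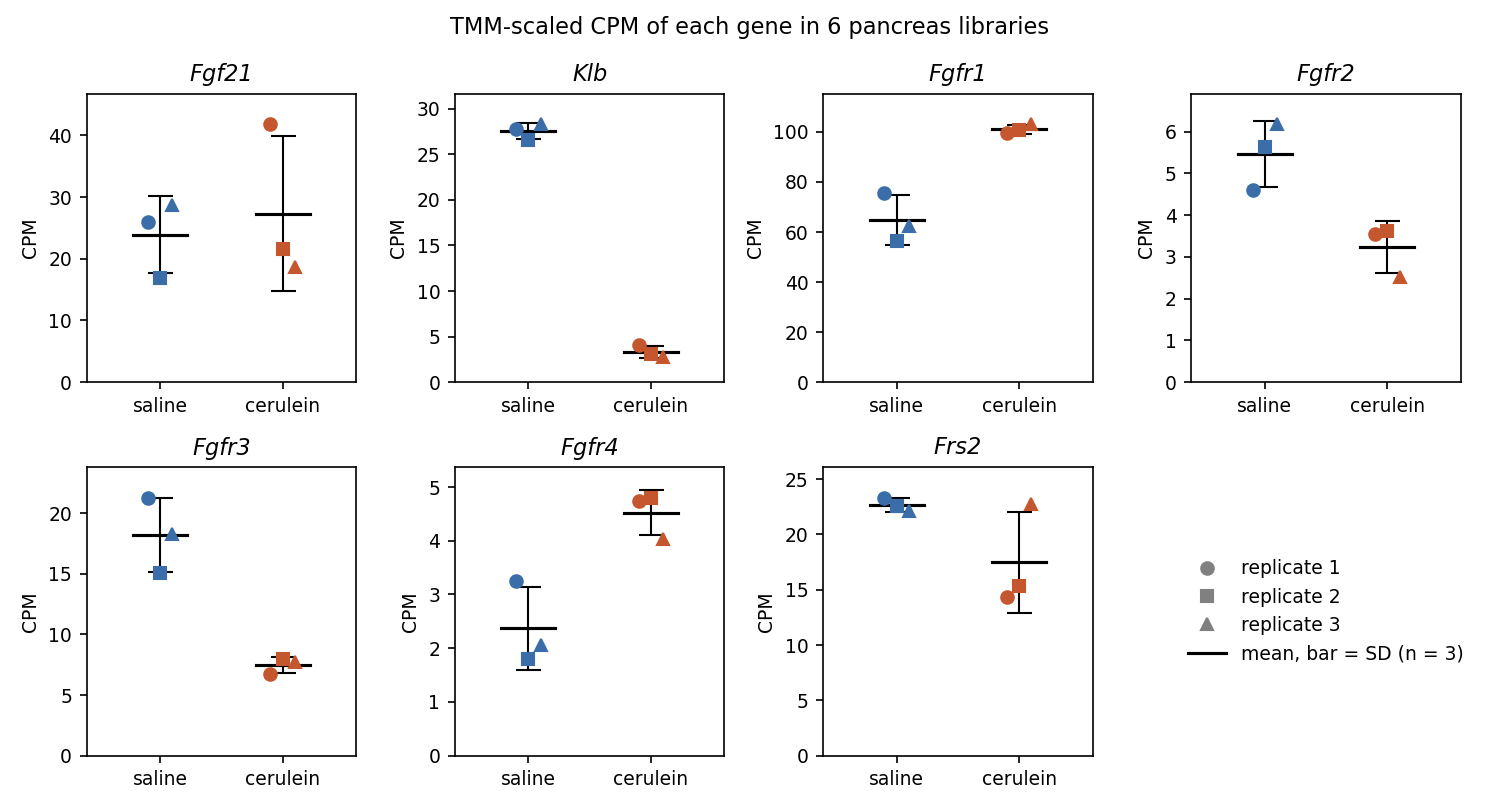
CPM of each of the 7 genes (vertical axes from 0, scaled per gene) in the 3 saline and 3 cerulein libraries. Symbols stand for replicates, horizontal bars for the mean and vertical bars for the SD. The 3 cerulein values of Klb lie between 2.78 and 4.02, all below the saline values of 26.6 to 28.3, while the groups of Fgf21 and Frs2 overlap.

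Fgf21, the ligand (chromosome 7, 45613890 to 45615490, minus strand), was at 26.0, 16.9 and 28.8 CPM in saline replicates 1, 2 and 3. In cerulein replicates 1, 2 and 3 it was at 41.8, 21.5 and 18.7 CPM. Cerulein replicate 1 was the highest of the 6 libraries, and the other two cerulein libraries lay within the saline range. The means were 23.9 ± 6.22 and 27.3 ± 12.6 CPM (SD, n = 3 each), a log2 fold change of 0.19 ± 0.32 (SE) with an adjusted p of 0.634 (edgeR). The 95% interval of the difference ran from -0.52 to 0.91 on the log2 scale, or 0.695-fold to 1.88-fold. A change of 2-fold or more in either direction thus lay outside it under TMM scaling. With library size alone the estimate was 0.77, so this bound depends on the scaling. Without cerulein replicate 1 the estimate was -0.23 (adjusted p = 0.446), so its sign rests on that library. Fgf21 had 75 to 353 reads per library, and the interval reflects the spread between samples as well as read depth.

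Klb, the co-receptor (chromosome 5, 65348411 to 65386957, plus strand), was at 27.8, 26.6 and 28.3 CPM in saline replicates 1, 2 and 3. After cerulein it was at 4.02, 3.04 and 2.78 CPM. The saline libraries agreed closely and every cerulein library was far below them. Mean levels were 27.5 ± 0.873 and 3.28 ± 0.656 CPM, and Klb fell by 3.06 ± 0.21 on the log2 scale (SE, adjusted p = 1.10e-07, edgeR), an 8.34-fold fall. In the ranking of all 12441 genes by p it was at place 222, and 214 genes had a lower log2 fold change. Read counts were 205, 118 and 110 in saline and 34, 26 and 22 in cerulein. Under all 15 alternative settings Klb remained called, with log2 fold changes from -3.25 to -2.49. Saline replicate 1, whose summed acinar markers were lower than those of the other saline samples, had 27.8 CPM of Klb. That sum is mostly of digestive enzyme genes, and the acinar marker Rbpjl was not lowest there (383 CPM against 292 and 506 in saline replicates 2 and 3). Of the markers, 7 of acinar cells and the 2 tested of hepatocytes moved down with Klb, as did Slc30a8 and Gcg of islets and Fabp4 of adipocytes, a cell type known to express Klb. Their part in its fall was not tested.

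Fgfr1, the main receptor partner of β-klotho (chromosome 8, 25518759 to 25575718, plus strand), was at 75.6, 56.3 and 62.5 CPM in saline replicates 1, 2 and 3. Its cerulein values were 99.4, 100.6 and 103 CPM. The cerulein libraries lay within a narrow range above every saline library. Fgfr1 rose from 64.8 ± 9.83 to 101 ± 1.85 CPM, a log2 fold change of 0.64 ± 0.15 (SE, adjusted p = 0.00320, edgeR). The call held under all 15 alternatives, but the size depended on scaling, at 0.44 with upper-quartile factors and 1.18 with library size alone. Fgfr1 is the one gene of the 7 that overlaps others in the annotation, the long non-coding RNA genes Gm31288 and Gm16159, of which Gm16159 is antisense and shares 164 exonic bases. Both had 0 counts in all libraries, as did all 8 genes of the lists below that lie inside another gene. Reads in the shared bases may thus have been counted for neither gene, which would lower the level of Fgfr1. The sources used here do not say how such reads were counted or whether counting used strand.

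Fgfr3, a further receptor that β-klotho can join (chromosome 5, 33721724 to 33737068, plus strand), was at 21.3, 15.1 and 18.3 CPM in saline replicates 1, 2 and 3. Cerulein libraries held 6.75, 7.96 and 7.70 CPM. No cerulein value came near the lowest saline value. Fgfr3 fell from 18.2 ± 3.09 to 7.47 ± 0.638 CPM, or by 1.29 ± 0.21 on the log2 scale (SE) with an adjusted p of 1.53e-04 (edgeR). With library size alone the change was -0.75 and was not called (adjusted p = 0.0505).

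Fgfr4, the main FGF receptor of liver cells and the partner of β-klotho for the bile acid hormone FGF15 (chromosome 13, 55152818 to 55168759, plus strand), was scarce. Saline replicates 1, 2 and 3 held 3.25, 1.80 and 2.06 CPM and the cerulein replicates 4.73, 4.80 and 4.04 CPM, from 8 to 41 reads per library. The groups did not overlap, and saline replicate 1 was the saline library nearest to cerulein. Fgfr4 rose from 2.37 ± 0.773 to 4.52 ± 0.420 CPM, a log2 fold change of 0.88 ± 0.35 (SE) with an adjusted p of 0.0475 (edgeR), just under the threshold. The call was lost with upper-quartile factors, DESeq2 and limma-voom, and on leaving out saline replicate 2, saline replicate 3 or any cerulein replicate, with adjusted p from 0.0532 to 0.120 in these settings.

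Fgfr2, a receptor of epithelial cells that binds several FGFs (chromosome 7, 130162451 to 130266808, minus strand), was at 4.60, 5.63 and 6.17 CPM in saline replicates 1, 2 and 3. The cerulein values were 3.55, 3.63 and 2.53 CPM, from 20 to 34 reads per library over both groups. All cerulein values were below all saline values, yet the test did not pass: the log2 fold change was -0.74 ± 0.31 (SE, adjusted p = 0.0613, edgeR). Its 95% interval ran from -1.41 to -0.06, and Fgfr2 was called with upper-quartile factors (-0.93) and without saline replicate 1 (-0.89).

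Frs2, the adaptor that couples the receptors to RAS (chromosome 10, 117070127 to 117148474, minus strand), was at 23.3, 22.5 and 22.1 CPM in saline replicates 1, 2 and 3. In cerulein it was at 14.3, 15.3 and 22.7 CPM. Cerulein replicates 1 and 2 were below saline, whereas cerulein replicate 3 lay within the saline range. The log2 fold change was -0.38 ± 0.20 (SE, adjusted p = 0.124, edgeR), with a 95% interval from -0.81 to 0.05. Its sign turned to 0.19 with library size alone, and Frs2 was called lower with upper-quartile factors (-0.58) and without cerulein replicate 3 (-0.60).

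**Figure D2:**
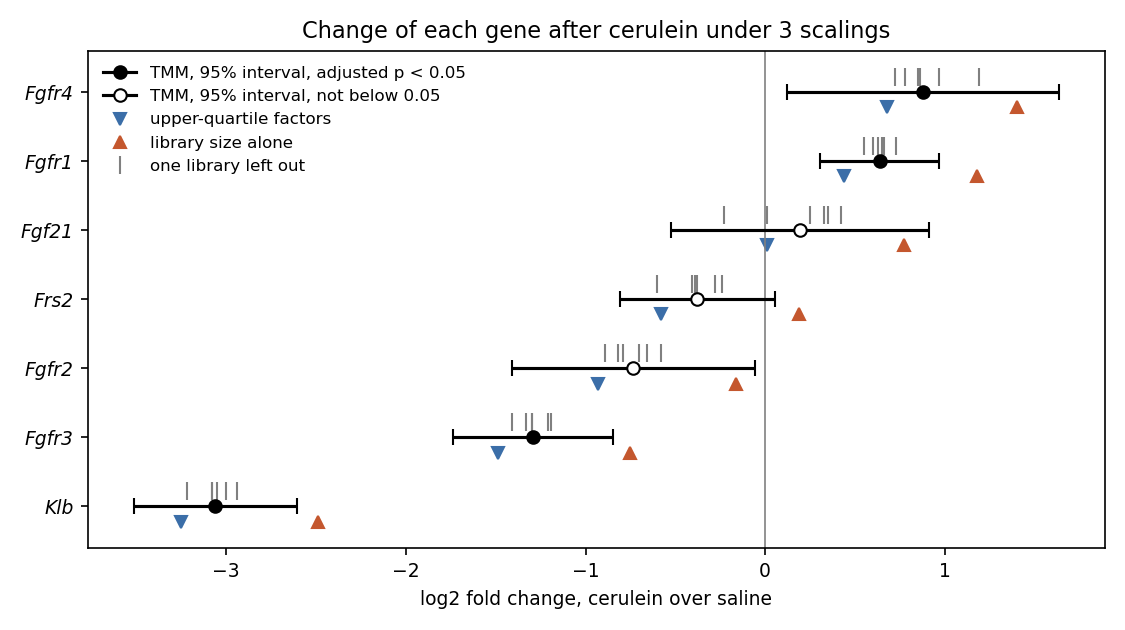
Log2 fold change, cerulein over saline, of the 7 genes with 95% intervals under TMM scaling (circles, filled where the adjusted p is under 0.05), with upper-quartile factors (downward triangles), with library size alone (upward triangles) and with 1 library left out (grey ticks). Klb lies between -3.25 and -2.49 under every setting drawn, and Frs2 changes sign with library size alone.

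Levels can be set against each other only per length, here as CPM per kilobase of merged exons. In saline the order was Fgf21 (25.2 ± 6.57), Fgfr1 (6.71 ± 1.02), Klb (6.19 ± 0.196), Frs2 (2.84 ± 0.0752), Fgfr3 (2.56 ± 0.434), Fgfr4 (0.705 ± 0.230) and Fgfr2 (0.546 ± 0.0794). Fgfr1 and Klb did not differ beyond their spread, nor did Frs2 and Fgfr3, nor Fgfr4 and Fgfr2. In cerulein the order was Fgf21 (28.9 ± 13.3), Fgfr1 (10.5 ± 0.191), Frs2 (2.19 ± 0.575), Fgfr4 (1.35 ± 0.125), Fgfr3 (1.05 ± 0.0898), Klb (0.737 ± 0.148) and Fgfr2 (0.323 ± 0.0614), and no neighbours overlapped. These orders are descriptions with no test between genes, and part of them rests on the length used. With the longest transcript as the length, Fgfr1 was above Klb in every saline library (12.9 ± 1.95 against 7.78 ± 0.246 CPM per kilobase), and in cerulein Fgfr3 (1.76 ± 0.150) was above Fgfr4 (1.36 ± 0.126) and Fgfr2 overlapped Klb. The cerulein values of Fgf21 (19.7 to 43.9) then overlapped those of Fgfr1 (19.7 to 20.4). By both lengths Klb was above Fgfr3 and Fgfr4 in every saline library and below both in every cerulein library.

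The composition of the receptors within a library does not depend on how libraries are scaled. As a share of the reads per kilobase of Fgfr1 to Fgfr4, Fgfr1 took 63.9%, 64.4% and 63.0% in saline and 79.1%, 78.2% and 80.8% in cerulein. Its mean share moved from 63.8% ± 0.706 to 79.4% ± 1.32 (SD, n = 3 each), a difference of 15.6 percentage points. The share of Fgfr3 differed by -16.3 points, from 24.3% ± 0.790 to 7.97% ± 0.588, and that of Fgfr2 by -2.87 points, from 5.33% ± 1.36 to 2.45% ± 0.469. The share of Fgfr4 was 3.62 points higher, 6.59% ± 1.13 against 10.2% ± 0.964. Groups of libraries did not overlap for any of the 4 shares, and each gave a two-sided exact permutation p of 0.1, adjusted 0.1 over the 4 receptors, the smallest that 3 against 3 can give.

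**Figure D3:**
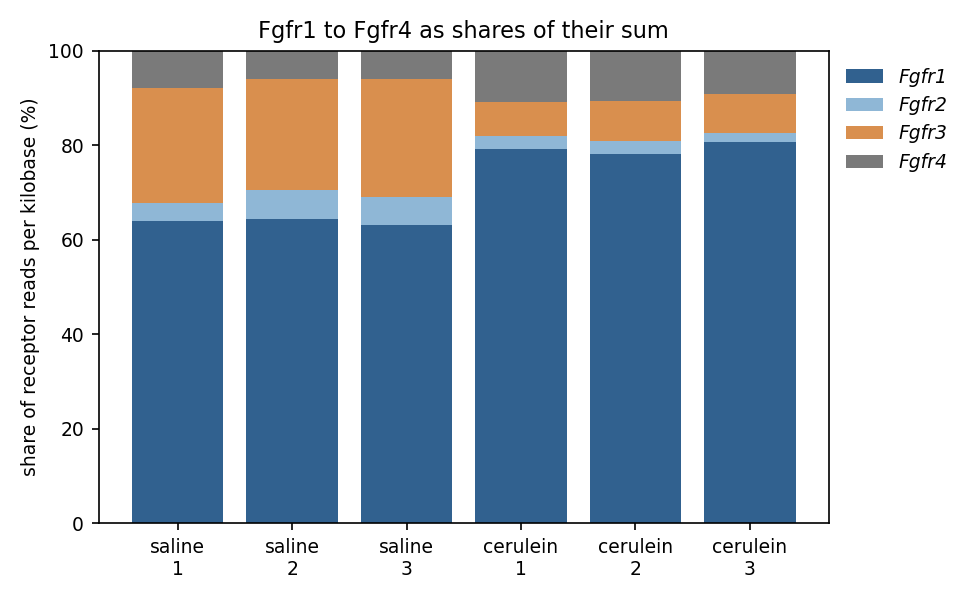
Stacked bars of the share (%) of Fgfr1, Fgfr2, Fgfr3 and Fgfr4 in the sum of their reads per kilobase, 1 bar per library. Fgfr1 fills 63.0% to 64.4% of the saline bars and 78.2% to 80.8% of the cerulein bars, and Fgfr3 shrinks from 24.3% to 7.97% on average.

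Ratios of reads within a library, 7 in all and chosen after the values were seen, put the co-receptor against its partners. For every 100 reads of Fgfr1 there were 36.7, 47.2 and 45.3 reads of Klb in the saline libraries and 4.05, 3.02 and 2.70 in the cerulein libraries. The mean ratio was 13.2-fold lower in cerulein (43.1 ± 5.57 against 3.26 ± 0.705, SD, n = 3 each). Per 100 reads of Fgfr3, which itself fell, Klb had 153.9 ± 22.8 reads in saline and 44.7 ± 13.0 in cerulein. Per 100 reads of Fgf21 it had 120.8 ± 32.0 and 12.9 ± 2.83. Fgfr3 per 100 reads of Fgfr1 went from 28.1 ± 1.21 to 7.39 ± 0.566. For each of the 7 ratios the exact permutation p was 0.1, two-sided, and 0.1 after adjustment over the 7, the smallest possible. The ratios restate changes already seen in their genes and are no separate test of any of them.

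Of the 21 other FGF ligand genes none passed the count filter, so Fgf21 was the one FGF ligand tested. Fgf4, Fgf5, Fgf6, Fgf8, Fgf15 and Fgf20 had 0 counts in all 6 libraries, which allows a level of up to 0.394 to 0.562 CPM, before TMM scaling, in a single library. Fgf1 and Fgf7 lie inside other genes and were also at 0, which in this table is no measurement. Fgf23, a hormone that raises phosphate loss and uses klotho (Kl), had 1, 1 and 3 counts in saline and 25, 11 and 45 in cerulein, and is named after its values were seen. With no filter its log2 fold change was 3.33 ± 0.65 (SE, adjusted p = 1.70e-06, edgeR) and with a filter of CPM above 1 in 3 libraries 3.28 ± 0.76 (adjusted p = 0.00245). Kl, its co-receptor, had 6, 2 and 3 counts in saline and 2, 2 and 3 in cerulein and was not tested.

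Among 26 co-receptors and binding partners, chiefly heparan sulfate proteoglycans and the enzymes that build or trim their chains, 18 were tested, of which 6 rose, 6 fell and 6 were not called. Their median log2 fold change was 0.23, beside -0.0009 over all genes. Counts here and in the lists below are to be read against 28.7% called higher and 27.1% lower among all genes tested. Sdc1, the syndecan-1 core protein of epithelial cells, rose from 18.9 ± 3.89 to 142 ± 4.99 CPM (2.88 ± 0.18 log2, SE, adjusted p = 4.31e-08, edgeR). Sdc4, another syndecan, rose by 1.35 ± 0.17 and Ndst1, which sulfates heparan chains, by 1.13 ± 0.16 (log2, SE). Extl3, a glycosyltransferase that starts those chains and a receptor of REG proteins, fell from 264 ± 39.5 to 86.2 ± 8.20 CPM (-1.61 ± 0.18 log2). Fgfrl1, a receptor-like protein that lacks the kinase domain and is named after its values were seen, rose from 12.6 ± 1.11 to 22.7 ± 1.36 CPM (0.85 ± 0.17 log2, adjusted p = 0.00102, edgeR). With library size alone 1 gene of this list was called lower in place of 6.

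Of 28 adaptors and kinases downstream of the receptors 27 were tested, with 9 higher, 8 lower and 10 not called. Over all genes tested 28.7% were higher and 27.1% lower. The list's median was -0.13 and turned to 0.46 with library size alone. Gab2, a docking protein, rose from 10.5 ± 2.17 to 81.2 ± 8.39 CPM (2.92 ± 0.19 log2, SE, adjusted p = 6.02e-08, edgeR). Grb2, the adaptor that FRS2 binds, rose from 31.9 ± 3.77 to 71.8 ± 4.13 CPM (1.16 ± 0.15 log2), and Ptpn11, the phosphatase SHP2 that FRS2 also binds, from 52.5 ± 2.67 to 118 ± 15.6 CPM. Pik3r1, the regulatory subunit of PI3-kinase, fell by 2.19 ± 0.18 and Sos2, an exchange factor for RAS, by 1.77 ± 0.19 on the log2 scale. Gab1 and Mapk3 were not called, with log2 fold changes of -0.15 and -0.13. Genes beyond the 4 with the smallest p are named after their values were seen.

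Nras, Pik3ca and Map2k1, which are 3 of the 8 genes called lower, divided the cerulein libraries. With Braf, Egfr, Met, Erbb2 and Kit they summed to 2177, 2879 and 3165 CPM in the saline libraries. The sums were 1758 in cerulein replicate 1 and 463 and 472 in cerulein replicates 2 and 3. Cerulein replicate 1 thus lay near the lowest saline library for these 8 genes, which were chosen after their values were seen. Nras and Map2k1 lost their calls without each of the saline libraries, and Pik3ca without saline replicate 1 or 2. Klb, Fgfr1, Fgfr3 and Frs2 did not divide the cerulein libraries in this way, while Fgf21 was highest in cerulein replicate 1. The cause of the division was not tested.

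A list of 15 genes held mostly feedback inhibitors of FGF signalling. Of these 14 were tested, with 8 higher, 1 lower and 5 not called (median 0.66). The shares over all genes tested were 28.7% higher and 27.1% lower. Dusp5, a nuclear ERK phosphatase, rose from 3.81 ± 0.412 to 44.5 ± 2.42 CPM (3.52 ± 0.19 log2, SE, adjusted p = 2.15e-08, edgeR). Errfi1, an inhibitor of the EGF receptor, rose by 1.67 ± 0.28 and Il17rd, which binds FGF receptors and damps their signal, by 1.81 ± 0.39 (log2, SE). Pdcd4 fell by 2.89 ± 0.18 on the log2 scale and was the one gene of the list called lower. It inhibits translation and is not itself a feedback inhibitor of FGF signalling. Dusp6, the ERK phosphatase most used as a readout of FGF activity, was at 10.6 ± 2.51 CPM in saline and 11.3 ± 0.659 in cerulein (0.08 ± 0.22 log2, adjusted p = 0.796, edgeR, 95% interval -0.41 to 0.56). Spry4 rose by 1.01 ± 0.26 and Spred1 by 0.61 ± 0.15 (log2), while Spry1 was not called (-0.32). Dusp6 and the Sprouty and Spred genes are named after their values were seen.

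A list of 20 genes held mostly transcription factors, with a few other early response genes, that FGF and ERK signals induce or act through. Of these 18 were tested, with 13 higher, 2 lower and 3 not called (median 1.76), beside 28.7% higher and 27.1% lower among all genes. Ier3 rose from 8.70 ± 1.39 to 128 ± 7.05 CPM (3.90 ± 0.18 log2, SE, adjusted p = 9.56e-09, edgeR), Klf6 by 3.49 ± 0.25, Junb by 3.24 ± 0.19 and Ier2 by 2.54 ± 0.19 (log2). These genes also respond to many signals other than FGF. Etv5, an ETS factor widely used as a marker of FGF signalling and named after its values were seen, fell: it was at 16.9 to 18.2 CPM in the saline libraries and at 4.97, 4.91 and 4.42 CPM in the cerulein libraries (-1.86 ± 0.21 log2, adjusted p = 7.52e-06, edgeR). Etv4, its close relative, did not pass the filter and had 3, 2 and 1 counts in saline and 12, 14 and 6 in cerulein. In the 5 settings that tested it the log2 fold change of Etv4 was 1.55 to 1.97, and it was called without cerulein replicate 3.

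Of 20 known or proposed regulators of Fgf21 transcription, including factors of acinar identity, all 20 were tested: 5 rose, 10 fell and 5 were not called (median -0.45). Among all genes tested 28.7% rose and 27.1% fell. Ppara, a main activator of Fgf21 in fasting, fell from 12.8 ± 1.62 to 0.722 ± 0.233 CPM (-4.11 ± 0.33 log2, SE, adjusted p = 4.59e-07, edgeR). Nr1h4, the bile acid receptor FXR, fell from 28.7 ± 2.48 to 1.40 ± 0.138 CPM (-4.33 ± 0.23 log2). Atf4 rose from 224 ± 8.10 to 895 ± 76.8 CPM (2.0 ± 0.18 log2, adjusted p = 1.10e-06, edgeR), and Nfe2l2, the factor NRF2 of the antioxidant response, rose by 1.69 ± 0.19. Xbp1 and Ddit3, of the endoplasmic reticulum stress response, were not called (0.01 ± 0.18 and 0.41 ± 0.26, SE, named after their values were seen). With library size alone the list's median turned to 0.14 and its counts to 8 higher and 5 lower.

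Of 12 other ATF4 targets 10 were tested and 9 rose, 0 fell and 1 was not called, with a median of 2.11. For all genes tested the shares were 28.7% higher and 27.1% lower. Chac1, which degrades glutathione, rose from 67.0 ± 35.0 to 1131 ± 65.2 CPM (4.07 ± 0.41 log2, SE, adjusted p = 2.93e-05, edgeR). Gdf15, a stress hormone, rose by 4.36 ± 0.36, Ddit4, an inhibitor of mTORC1, by 1.78 ± 0.25, and the serine synthesis gene Phgdh by 0.96 ± 0.16 (log2, SE). Other genes with the core TGATGNAA in their window also rose. These were Slc7a11, a cystine transporter, by 3.29 ± 0.41, Trib3 by 3.87 ± 0.55 and Asns, the asparagine synthetase, by 0.78 ± 0.18. In Trib3 the core (TTACATCA) lay after the start, and Asns held TGATGAAA and not the letters of Fgf21. Gdf15, Ddit4, Phgdh, Sesn2 and Psat1, not among the genes in which the core was found, rose too. Fgf21, which holds it, was not called. Whether the core had a part in the rise was not tested. Slc7a11, Trib3, Asns, Sesn2 and Psat1 are named after their values were seen. Cth, a cysteine synthesis gene, was the one not called (-0.86 ± 0.43, adjusted p = 0.127, edgeR).

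Relative to Atf4 and to the sum of these genes, Fgf21 was lower in every cerulein library than in every saline library. For every 100 reads of Atf4 there were 11.7, 7.82 and 12.4 reads of Fgf21 in the saline libraries and 5.18, 2.29 and 1.99 in cerulein. Against the summed reads of the 10 other targets the ratio went from 3.81 ± 0.404 to 1.02 ± 0.472 per 100, or 3.74-fold lower. Both ratios are among the 7 above, chosen after the values were seen, with an exact permutation p of 0.1. Atf4 and 9 of the 10 targets rose while Fgf21 was not called (0.19 log2), so lower ratios follow from those changes. They are no separate test of Fgf21. Against each of the 10 targets alone, a setting added after the values were seen, the ratio was lower in every cerulein library for 7 targets and overlapped between the groups for Asns, Phgdh and Cth.

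**Figure D4:**
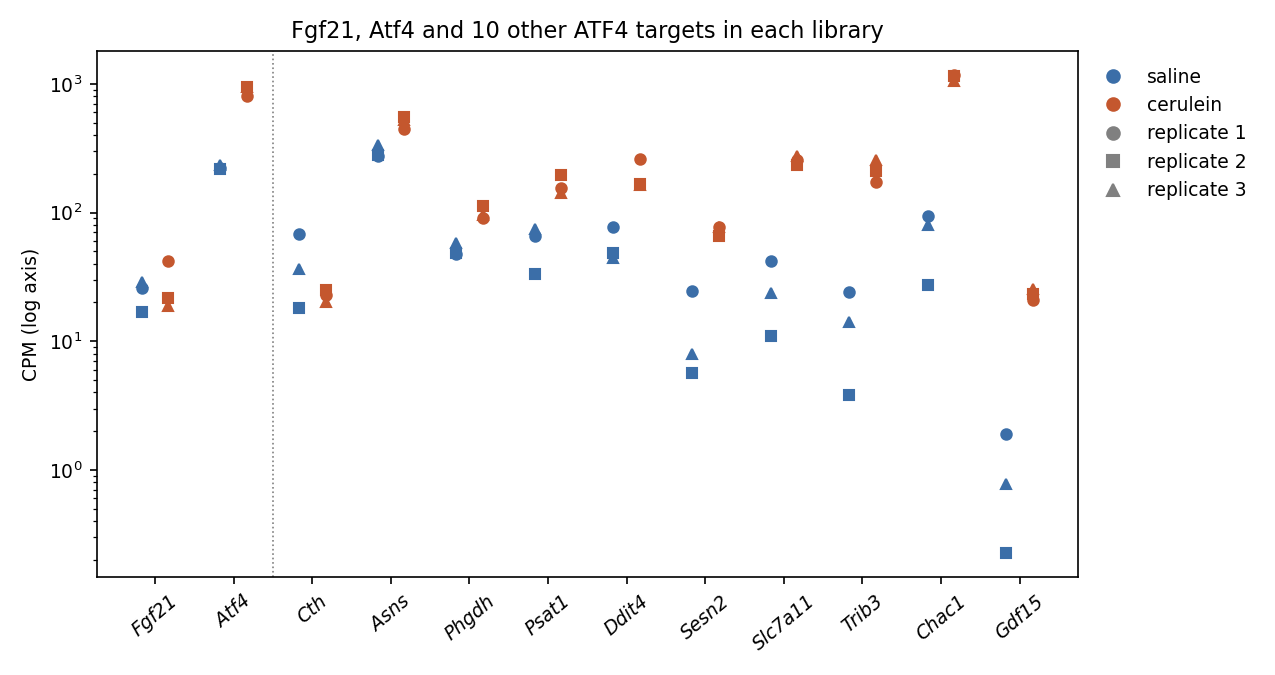
CPM (log axis) of Fgf21, Atf4 and 10 other ATF4 targets in each library, saline at the left and cerulein at the right of each gene, with symbols for replicates. Atf4 and 9 of the 10 targets lie wholly higher in cerulein, whereas the groups overlap for Fgf21 (16.9 to 28.8 and 18.7 to 41.8 CPM) and for Cth.

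Of 16 receptors for other hormones and growth factors 15 were tested, with 2 higher, 4 lower and 9 not called (median -0.58). All genes tested had 28.7% higher and 27.1% lower. Cckar, the receptor that cerulein itself acts on, went from 432, 730 and 665 CPM in saline to 13.6, 10.8 and 10.1 in cerulein (-5.72 ± 0.27 log2, SE, adjusted p = 9.70e-09, edgeR). Vipr1, the receptor of vasoactive intestinal peptide, fell from 34.0 ± 2.57 to 4.61 ± 0.741 CPM (-2.88 ± 0.19 log2). Insr, the insulin receptor, fell by 1.06 ± 0.15, a call lost with library size alone, and Erbb3 rose by 1.06 ± 0.24. The change of Klb (-3.06) lay between those of Cckar and Insr and close to that of Vipr1, with no test between these genes.

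**Figure D5:**
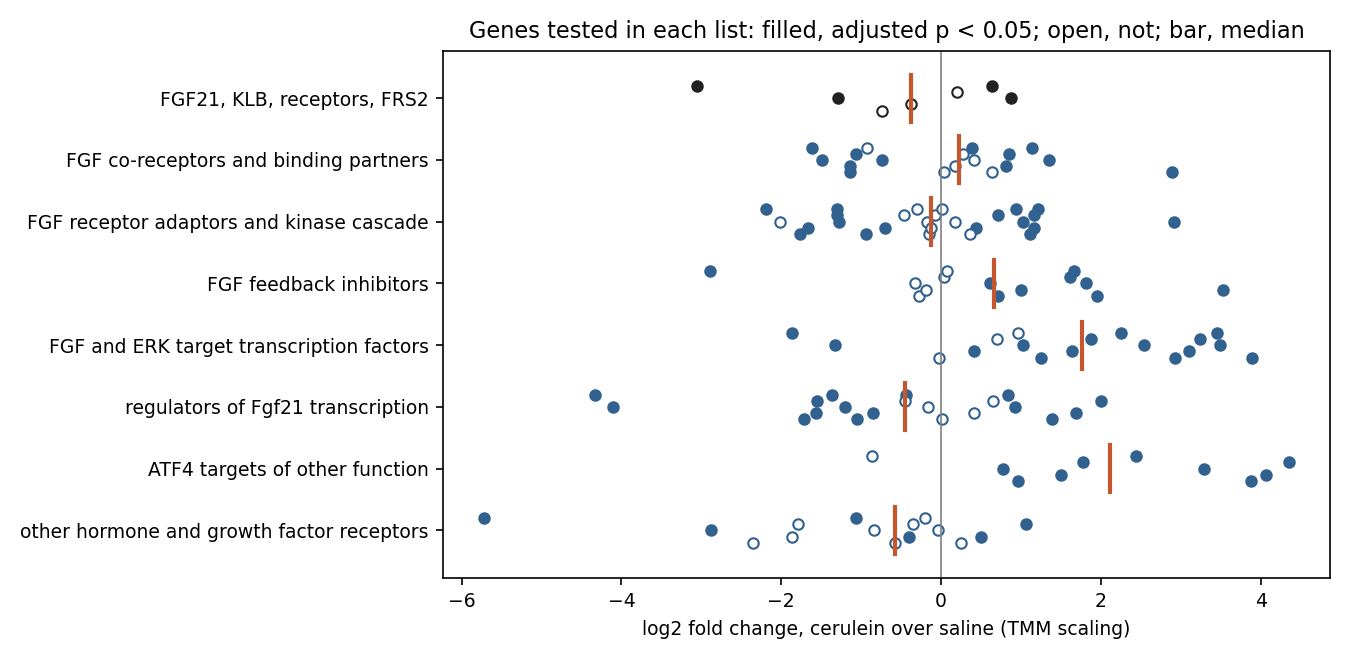
Log2 fold change, cerulein over saline, of each gene tested, by list, with filled points for an adjusted p under 0.05 and a vertical bar at the list's median. The medians range from -0.58 for the other receptors to 2.11 for the ATF4 targets, and the 7 genes in the top row spread from -3.06 to 0.88.

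Profiles most like each of the 7 genes were sought by the root-mean-square difference of log2 CPM over the 6 libraries, each gene centred on its mean, among 11266 genes. For Klb the nearest were Vipr1 (0.114), Sgk2 (0.119) and Appl2 (0.124). Fgf21 was nearest to Fbln2 (0.114), Nkx2-3 (0.121) and Lsp1 (0.156), which were also highest in cerulein replicate 1. Fgfr1 was nearest to Cdo1 (0.0267), Eif4enif1 (0.0478) and the feedback inhibitor Spred1 (0.0509), and Fgfr3 to Ggt5 (0.0570), Ercc5 (0.0590) and Plxna2 (0.0637). For Fgfr4 they were Mlst8, Zswim6 and Brox (0.0609 to 0.0807), for Fgfr2 Uqcrh-ps1, Iqce and Gnpda1 (0.0423 to 0.0621), and for Frs2 Wnk4 and Alg13 (0.0835 and 0.0936). These likenesses are descriptions over 6 libraries that share the difference between groups.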

How the data were processed

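RNA sequencing of the pancreas gave 3 saline and 3 cerulein libraries. Per the labels' protocols, TRIzol was used for extraction and a stranded TruSeq mRNA kit for the libraries. The values that the authors deposited are unnormalized read counts, 1 row per gene. Trimmomatic, STAR, HTSeq and the mm10 build are named in the submitters' processing notes, and the sources used here do not give their versions or settings.

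These counts went into edgeR 4.0.16 (R 4.3.3; filterByExpr, minimum count 10 and minimum total 15, TMM factors, robust quasi-likelihood F test, two-sided, Benjamini-Hochberg over 12441 genes, called at an adjusted p under 0.05). TMM factors were 1.03, 0.719 and 0.731 in saline and 1.30, 1.13 and 1.26 in cerulein replicates 1, 2 and 3. CPM divide each count by its TMM-scaled library size, and standard errors come from the F statistics. Exon lengths are GENCODE M21 exons merged within the RefSeq span, and positions and promoters are from RefSeq GRCm38.p6. Shares and ratios used exact permutation tests. The script was tested on simulated data.

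The genes and lists were chosen with earlier results of these data known. Named are the 7 genes, the 4 genes of smallest p per list and the 3 nearest profiles per gene, where 1 row whose symbol had become a date was left unnamed. A list gene at 0 that lies inside another gene was treated as not measured. Alternatives were other scalings and filters, DESeq2 1.42.0, limma-voom (limma 3.58.1), a replicate block and leaving out each library. Some genes of the lists are not reported by name here.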

Additional observations from a re-analysis of the deposited data

How the results depend on the processing

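Klb and Fgfr1 kept their direction and call under all 15 alternatives each. Library size alone called 1449 genes lower and gave a median log2 fold change over all genes of 0.562, which was -0.197 with upper-quartile factors. Among the 7 genes, 1 was called higher with upper-quartile factors, DESeq2 or limma-voom, 4 were called lower with upper-quartile factors and 1 with library size alone, and leaving out single libraries gave 1 to 2 higher. Fgf21 ranged from -0.23 to 0.42 on leaving out libraries and was reversed at -0.23 without cerulein replicate 1, with 0.01 under upper-quartile factors and 0.77 under library size alone, and was never called. Fgfr2 was -0.93 and Frs2 -0.58 with upper-quartile factors, both called, and Frs2 was 0.19 with library size alone. Leaving out libraries gave -0.89 to -0.58 for Fgfr2 and -0.60 to -0.24 for Frs2. Fgfr3 was -0.75 with library size alone. Fgfr4 was 0.68 with upper-quartile factors, 0.89 with DESeq2 and 0.85 with limma-voom, and 0.72 to 1.19 on leaving out libraries. With reads not divided by length the share of Fgfr3 moved by -13.6 points and that of Fgfr4 by 1.33, and with the longest transcript, a setting added after the data were seen, by -15.1 and 2.02. The cause of these shifts was not tested.

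For the lists, library size alone gave 1 co-receptor, 2 cascade genes, 5 regulators and 2 other receptors lower, and 8 regulators higher. Upper-quartile factors gave 3 genes of the feedback inhibitor list and 7 other receptors lower, and limma-voom 8 other receptors lower. Other receptors higher numbered 1 with upper-quartile factors, RLE factors, DESeq2 or TMM factors without digestive enzyme genes. One ATF4 target (1) was called lower with no filter and with DESeq2. Other FGF ligands higher numbered 1 with no filter and 1 with CPM above 1 in 3 libraries, where 1, Fgf14, was lower. Leaving out libraries gave 0 to 1 ligands higher, 5 to 9 cascade genes lower, 0 to 1 ATF4 targets lower, and 1 to 2 other receptors higher and 3 to 7 lower.

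The replicate numbers were not taken as pairs: same-numbered deviations correlated at 0.19, 0.216 and -0.15. Saline replicates 1 and 2 correlated best with their own number and saline replicate 3 did not. With the replicate number as a block 3673 genes were higher and 3401 lower, 2 of the 7 genes were higher and 2 lower, and Klb was at -3.06, Fgfr1 at 0.65, Fgfr3 at -1.28 and Fgfr4 at 0.92. At 8 to 41 reads per library, depth limits what Fgfr4 and Fgfr2 can show.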
